A study of Mus musculus with 13 samples.

Results

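The 10 genes described here, Malat1, Neat1, Miat, Rmst, Pantr1, Crnde, Snhg11, Mir99ahg, Pvt1 and Gas5, are long noncoding RNA (lncRNA) genes known from the nervous system or from growing cells. They were chosen by name from 35325 protein-coding and lncRNA genes of GENCODE M21, of which 13374 were lncRNA genes, and all 10 were found there. Snhg11 carries the type protein_coding in that annotation and was kept with the others. The study followed oligodendrocyte development with 13 samples, 1 per group: ChIP-Seq of H3K4me3 and H3K27me3 with an input DNA library in neural stem cells (NSCs), oligodendrocyte precursor cells (OPCs) and newly formed oligodendrocytes (NFOs), ChIP-Seq of OLIG2 in OPCs and NFOs, and an OLIG2 RIP-seq library with its control. NSCs were grown from E14.5 CD-1 cortex with EGF and FGF according to the methods, whereas the labels give C57BL/6 for all samples. OPCs and NFOs were taken directly from early postnatal C57BL/6 mouse brain by immunopanning, with PDGFRα and GalC as the surface antigens, and all samples were untreated, so strain, age, culture and stage cannot be told apart between NSCs and the other 2 cell types. With 1 library per group no test between stages could be made, and a peak count is given beside the share of all genes that met the same rule.

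H3K4me3 is a histone mark found at active promoters, and H3K27me3 is the mark set by the Polycomb repressive complex PRC2. Both together mark promoters held silent but able to be turned on, as at many developmental genes in stem cells. OLIG2 is a basic helix-loop-helix transcription factor that specifies the oligodendrocyte lineage and binds E-boxes, short DNA elements of the form CANNTG. Long noncoding RNAs are transcribed and spliced much like messenger RNAs, and several of these 10 act in the nucleus or carry small RNAs in their introns.

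In each stage the H3K4me3 list lay nearer to start sites than the H3K27me3 list: 44.4% to 72.7% of listed H3K4me3 peaks and 7.54% to 20.0% of listed H3K27me3 peaks were within 1 kb of a transcription start site (TSS). Libraries are named here by their titles, because the antibody field of the 6 histone libraries gives the opposite mark. Of 7 NSC marker genes, 7, 7 and 4 had an H3K4me3 peak within 2 kb of a TSS in NSCs, OPCs and NFOs, and of 13 oligodendrocyte lineage genes 8, 9 and 6 had one. Of 5 microglial genes at most 1 had one in any stage, whereas 5, 5 and 4 of 6 neuronal genes had one.

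The bases under the listed peaks set 4 of the 8 ChIP-Seq lists apart. A run of 10 or more A or 10 or more T was present in 71.2% of listed OLIG2 peaks in OPCs and 70.8% in NFOs, against 5.66% and 5.91% of stretches of the same length 5 kb to the right. Among listed histone peaks of up to 500 bp it was present in 76.9% (H3K4me3) and 92.8% (H3K27me3) of those of NSCs, where the stretches 5 kb away gave 6.21% and 7.07%. The shares in the OPC and NFO histone lists were 5.61% to 12.1%, with 5.32% to 6.41% in their stretches. The OLIG2 libraries were made with a kit that adds a homopolymer tail to the DNA and primes from it, and what the runs contribute to any peak was not tested. Results are therefore given with every listed peak and again without listed peaks of up to 500 bp that hold such a run.

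**Figure D1:**
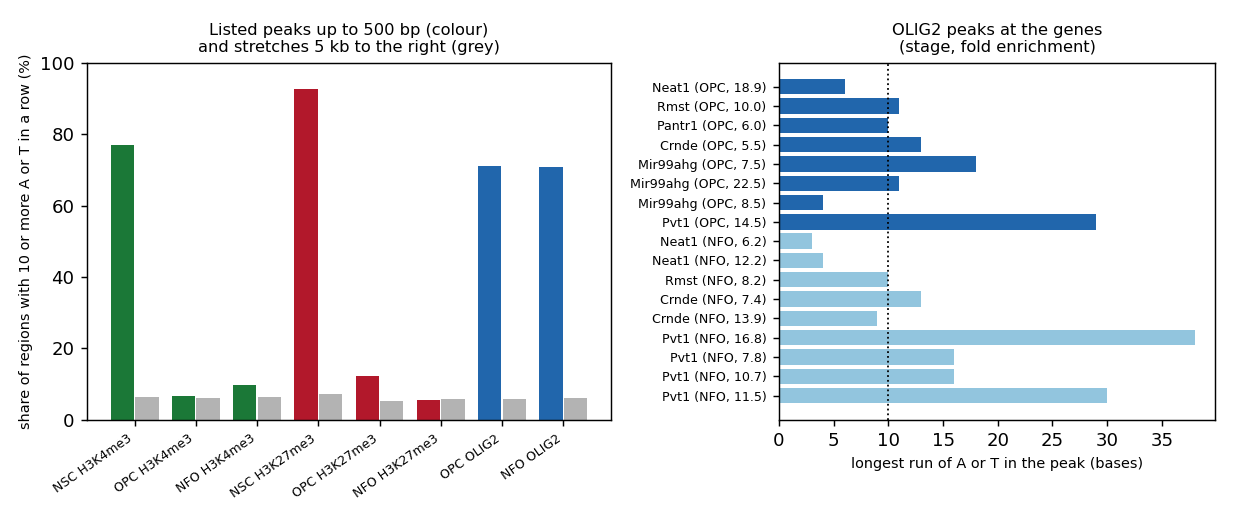
Left, share (%) of listed peaks of up to 500 bp with 10 or more A or T in a row in each ChIP-Seq library (colour) and of stretches of the same length 5 kb to the right (grey). Right, longest run of A or T (bases) in each of the 17 OLIG2 peaks at the 10 genes, with stage and fold enrichment in brackets and a dotted line at 10 bases. The NSC histone lists and both OLIG2 lists stand at 70.8% or above, and 12 of the 17 peaks reach the line.

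H3K4me3 was listed at 10 of the 10 genes in NSCs and at 7 in OPCs and NFOs, H3K27me3 at 4, 5 and 4, and OLIG2 at 6 in OPCs and 4 in NFOs. A histone peak counted when it lay within 2 kb of any TSS or in the gene, and an OLIG2 peak when it lay in the gene or up to 5 kb upstream. By the same rules 52.5%, 47.5% and 36.9% of all genes had H3K4me3 in NSCs, OPCs and NFOs, and 28.1%, 21.5% and 11.3% had H3K27me3. OLIG2 was listed at 12.8% of all genes in OPCs and 22.5% in NFOs. The authors had already named Mir99ahg and Pantr1 for OLIG2 peaks in OPCs, and Crnde for peaks in OPCs and NFOs. The OLIG2 counts of the 10 genes are therefore not independent of these data. Overlapping H3K4me3 and H3K27me3 peaks were listed at 1, 2 and 2 of the 10 genes, and at 11.6%, 5.17% and 3.23% of all genes.

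Left without the narrow peaks on A or T runs, the 10 genes gave 10, 7 and 7 with H3K4me3 (49.7%, 47.3% and 35.8% of all genes), 3, 5 and 4 with H3K27me3 (16.9%, 20.4% and 11.1%) and 1, 2 and 2 with both marks (5.45%, 4.87% and 3.05%). OLIG2 remained listed at 2 of the 10 genes in OPCs, Neat1 and Mir99ahg, where 4.14% of all genes still had a peak. It remained at 2 in NFOs, Neat1 and Crnde, where 8.22% of all genes did. The OLIG2 counts thus fell from 6 to 2 and from 4 to 2, while no histone count moved by more than 1 gene. Only peaks of up to 500 bp could be left out, which was every OLIG2 peak at the genes. In NSCs, OPCs and NFOs it was 12 of 28, 0 of 13 and 9 of 23 H3K4me3 peaks. For H3K27me3 it was 12 of 17, 11 of 24 and 6 of 18. Wider histone peaks stayed even with a run, so the OLIG2 and histone changes cannot be compared.

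OLIG2 peaks were listed at the longer genes. The 6 genes of at least 20 kb (Neat1, Rmst, Pantr1, Crnde, Mir99ahg and Pvt1) were the 6 with an OLIG2 peak in OPCs, and of the 4 shorter genes (Malat1, Miat, Snhg11 and Gas5) none had one in either stage. Over all genes of at least 20 kb the share with a listed OLIG2 peak was 25.3% in OPCs and 44.0% in NFOs, and over shorter genes it was 5.99% and 10.7%. H3K27me3 was likewise listed at 4 of these 6 genes in each stage, and among the shorter 4 at Snhg11 in OPCs alone. Over all genes of at least 20 kb its share was 52.9%, 34.9% and 18.1% in NSCs, OPCs and NFOs. Over shorter genes it was 14.5%, 14.2% and 7.57%. The part of length in the OLIG2 and H3K27me3 counts was not tested.

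**Figure D2:**
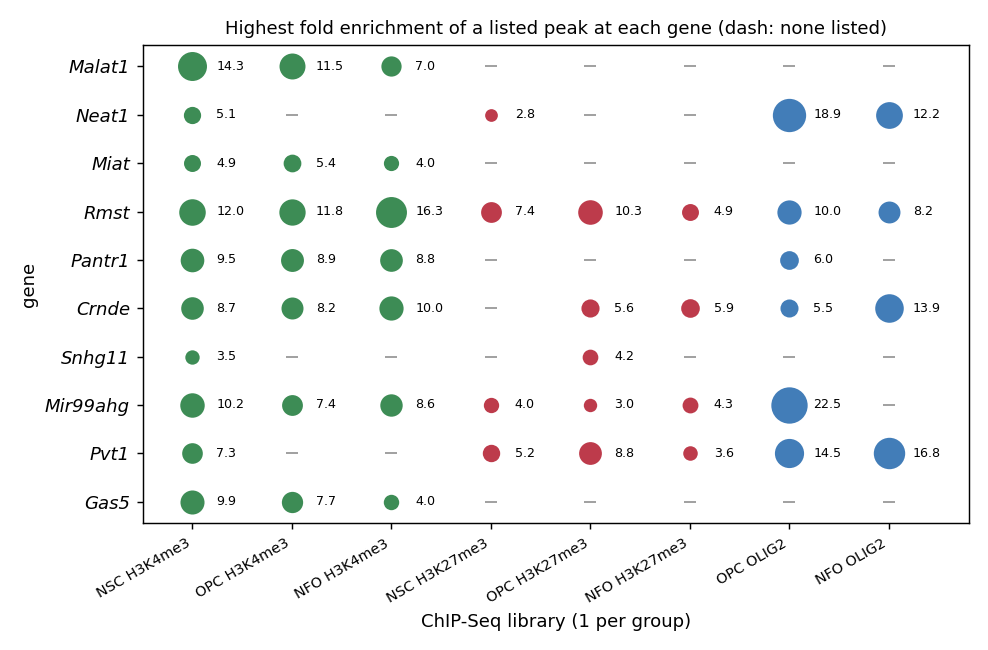
Highest fold enrichment of a listed peak at each of the 10 genes (rows) in each of the 8 ChIP-Seq libraries (columns, 1 library each). Dot area and the number beside it give the fold enrichment, and a dash means that no peak was listed. Malat1, Miat, Pantr1 and Gas5 carry H3K4me3 alone among the histone marks in the 3 stages, Rmst and Mir99ahg carry both, and the highest OLIG2 value is 22.5 at Mir99ahg in OPCs.

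Malat1, the abundant RNA of nuclear speckles, had a single H3K4me3 peak per stage that ran over most of its 6983 bp (chr19:5795690-5802672, minus strand). Fold enrichment over input in NSCs, OPCs and NFOs was 14.3, 11.5 and 6.98, higher than 98.7%, 95.1% and 82.1% of the listed H3K4me3 peaks of the same library. The peaks were 9061, 5670 and 5148 bp wide, among the widest of each list. No H3K27me3 or OLIG2 peak was listed at the gene, and the nearest OLIG2 peak lay 43896 bp from its TSSs in OPCs and 24517 bp in NFOs. A TSS of Gm37376, on the other strand, lies 730 bp from one of Malat1.

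The Malat1 promoter is shown because it carried the highest H3K4me3 value of the 10 genes in NSCs. Its RefSeq window of 300 bases (GRCm38.p6, chr19:5802623-5802922, minus strand, 250 bases before to 50 after the start) held 10 CpGs, given in capitals, more than 56.5% of 32851 RefSeq promoters, and its GC content of 47.0% exceeded that of 28.4% of them.
Malat1 promoter: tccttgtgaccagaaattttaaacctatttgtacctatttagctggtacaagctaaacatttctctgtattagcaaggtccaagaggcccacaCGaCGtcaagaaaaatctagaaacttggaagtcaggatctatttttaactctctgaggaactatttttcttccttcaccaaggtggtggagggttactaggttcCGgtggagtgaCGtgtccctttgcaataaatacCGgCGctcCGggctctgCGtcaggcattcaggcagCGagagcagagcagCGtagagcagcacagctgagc

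Neat1, the scaffold RNA of paraspeckles (chr19:5824708-5845478, minus strand), had listed histone peaks in NSCs alone and listed OLIG2 peaks in OPCs and NFOs. In NSCs it had 3 H3K4me3 peaks, the strongest of fold enrichment 5.07 and 2147 bp starting 1431 bp upstream of the gene, another of 4.03 on an A or T run of 18 bases, and an H3K27me3 peak of 2.76 in an exon that did not pass the study's filter. In OPCs and NFOs the nearest listed H3K4me3 peak was the one at Malat1, 25386 and 25376 bp from a Neat1 TSS. Both marks in NSCs, overlapping or not, and neither in OPCs and NFOs were listed at 337 of all genes (0.954%).

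OLIG2 peaks of fold enrichment 18.9 in OPCs and 12.2 in NFOs overlapped by 142 bp upstream of Neat1, and NFOs had another of 6.16 in an exon. The upstream peaks began 1090 and 1178 bp from the nearest Neat1 TSS, and a TSS of the divergent gene Frmd8os lies 145 bp from one of Neat1. Their longest A or T runs were 6 and 4 bases, so both stayed in the count without runs. Each is printed because this was the one site among the 10 genes where OLIG2 was listed in both stages with no such run. Capitals mark CANNTG, searched on both strands, which it reads the same. The OPC peak lies at chr19:5846568-5846797 and the NFO peak at chr19:5846656-5846891 (GRCm38.p6, plus strand).
Neat1 OPC peak: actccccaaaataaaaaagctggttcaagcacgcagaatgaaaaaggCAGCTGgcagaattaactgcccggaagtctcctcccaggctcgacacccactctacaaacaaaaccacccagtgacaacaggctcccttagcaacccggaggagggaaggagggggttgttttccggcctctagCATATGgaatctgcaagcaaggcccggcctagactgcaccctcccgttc
Neat1 NFO peak: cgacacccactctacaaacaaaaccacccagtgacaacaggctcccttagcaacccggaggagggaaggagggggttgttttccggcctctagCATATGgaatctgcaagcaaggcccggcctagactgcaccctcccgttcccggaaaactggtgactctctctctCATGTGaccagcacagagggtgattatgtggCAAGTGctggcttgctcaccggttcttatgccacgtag
The OPC peak held 2 E-boxes, of the forms CAGCTG and CATATG, and the NFO peak held 3, and the CATATG lay in the shared stretch. CATATG was present in 6.20% of all listed OLIG2 peaks of OPCs and 6.51% of those of NFOs, CAGCTG in 13.6% and 10.1%, and any CANNTG in 70.4% and 69.3%. CATCTG, or CAGATG on the other strand, was in neither Neat1 peak and in 18.9% and 17.4% of the lists.

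Miat, a nuclear RNA of neurons and retina also named Gomafu (chr5:112213228-112229395, minus strand), had 1 H3K4me3 peak per stage near its TSSs. Fold enrichment was 4.92, 5.36 and 3.95 in NSCs, OPCs and NFOs, and the peaks measured 3492, 2012 and 191 bp. No H3K27me3 or OLIG2 peak was listed at Miat. The values were near the middle of each list (higher than 53.0%, 43.4% and 42.9% of its peaks), whereas the NSC, OPC and NFO peaks were wider than 95%, 85.3% and 19.9% of them.

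Rmst, an RNA that works with SOX2 in neurogenesis (chr10:92071037-92165170, minus strand), carried both marks in every stage. Its strongest H3K4me3 peaks lay near internal TSSs close to the 5′ end, with fold enrichment of 12 in the NSC library, 11.8 in OPCs and 16.3 in NFOs. A TSS of Gm26700, on the other strand, lies 61 bp from one of Rmst. H3K27me3 was listed in 7, 10 and 12 peaks, with highest values of 7.36, 10.3 and 4.88, and these covered 5183, 16448 and 16824 bp. Among the NSC ones only that of 3.01 lacked an A or T run of 10 or more bases. Those of 5.96, 5.19 and 6.96 were narrow, with runs of 27, 15 and 24 bases, and fell out without narrow peaks on runs. The strongest held a run of 11 bases and stayed because of its width. The strongest NSC H3K27me3 peak (978 bp) overlapped the H3K4me3 peak, and 99.4% of listed NSC H3K27me3 peaks had a lower fold enrichment. Both marks in all 3 stages, overlapping or not, were listed at 1313 genes (3.72%), Mir99ahg among them. Mir99ahg lost H3K27me3 in NSCs without narrow peaks on A or T runs, and in OPCs under the study's filter.

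The widest OPC and NFO H3K27me3 peaks of Rmst lay towards its ends, with narrower ones between them. In OPCs a peak of 3316 bp covered the most upstream TSSs and one of 5774 bp lay near the 3′ end, and in NFOs these measured 4411 and 6175 bp. In NFOs the 2 strongest H3K4me3 peaks (256 and 276 bp) left 957 bp between them, from chr10:92162091-92163047, and the H3K27me3 peaks of OPCs and NFOs ended and began within 10 bp of the same bases. The unlisted stretch had a GC content of 48.6% and 40 CpGs, against 27.7% with 2 CpGs and 39.1% with 4 in the peaks on its sides, and contained no unknown bases. The OPC H3K4me3 peak ran across it.

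OLIG2 was listed at Rmst at a different place in each stage. The OPC peak (fold enrichment 10.0, chr10:92162993-92163222) lay on an exon at an internal TSS under H3K4me3 and H3K27me3 peaks of all 3 stages. The NFO peak (8.19, chr10:92123505-92123740) lay in an intron, 12552 bp from the nearest TSS. They held A or T runs of 11 and 10 bases and no E-box, and neither stayed in the count without runs.

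Rmst also contains the miR-135a-2 and miR-1251 genes. The miR-135a-2 hairpin (chr10:92072086-92072185) touched an OPC H3K27me3 peak of fold enrichment 3.37, which did not pass the study's filter, and lay 373 bp from an NFO one of 4.81 and 4425 bp from the nearest in NSCs. The mature sequence is printed with its seed, bases 2 to 8, in capitals, since this is the small RNA within the marked 3′ end.
miR-135a-5p: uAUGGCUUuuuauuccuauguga

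**Figure D3:**
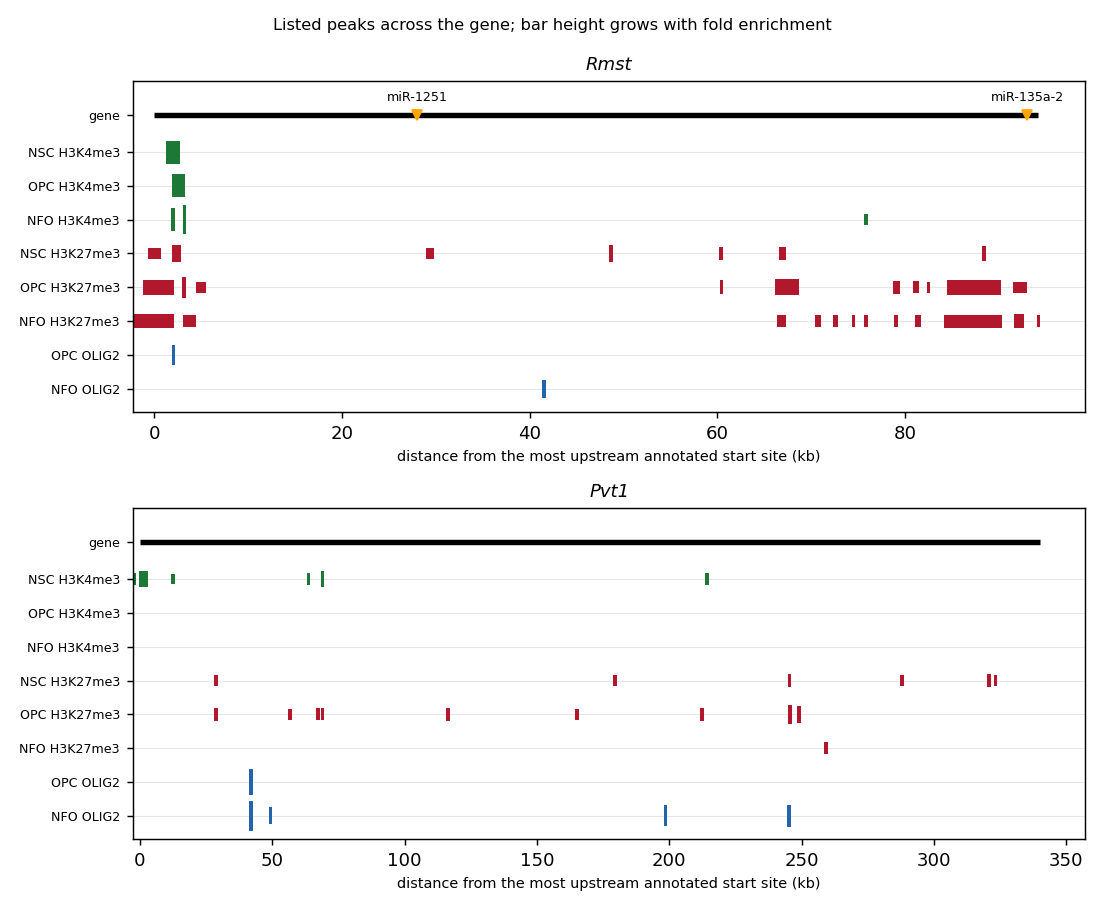
Listed peaks across Rmst (top) and Pvt1 (bottom) by library, against distance (kb) from the most upstream annotated start site, with bar height growing with fold enrichment and orange triangles for miRNA genes. Bars narrower than the drawing allows were widened to stay visible. At Rmst the widest H3K27me3 peaks of OPCs and NFOs lie towards both ends. At Pvt1 H3K4me3 is listed in NSCs alone.

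Pantr1, which starts next to the neural POU factor gene Pou3f3 (chr1:42590782-42694842, minus strand), carried some of the widest H3K4me3 peaks. The NSC peak over its promoter was 21608 bp wide with fold enrichment 9.51, and the OPC one was 13533 bp with 8.94. In NFOs the same region was listed as 4 shorter peaks of 202 to 1390 bp, with fold enrichment of 5.11 to 8.77. On the other strand, TSSs of Pou3f3, 4930420N18Rik and AC122898.1 lie 926, 47 and 83 bp from one of Pantr1, so these peaks cannot be given to 1 of these genes. No H3K27me3 peak was listed by the rule used here. The nearest, of fold enrichment 2.96 in OPCs (chr1:42701002-42701546), was 6160 bp from a TSS. It lay beyond the 2 kb limit but inside the OPC H3K4me3 peak of 13533 bp.

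The only OLIG2 peak at Pantr1 was an OPC one of fold enrichment 5.97 in an intron (chr1:42629834-42630063), 21616 bp from the nearest TSS. It overlapped small H3K4me3 peaks of NSCs (2.85) and NFOs (2.70), neither of which passed the study's filter. It held 3 E-boxes and an A or T run of 10 bases. The nearest NFO OLIG2 peak was 94174 bp from a Pantr1 TSS.

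Crnde, a progenitor and tumour RNA transcribed away from the Irx5 gene (chr8:92326033-92356120, minus strand), had H3K4me3 in all 3 stages and H3K27me3 in OPCs and NFOs. The H3K4me3 fold enrichment of NSCs, OPCs and NFOs was 8.69, 8.25 and 9.99, in single peaks of 7321, 3205 and 749 bp over a TSS. No H3K27me3 peak was listed in NSCs, the nearest lying 3198 bp from a TSS (chr8:92359318-92360785), beyond the 2 kb limit but inside the NSC H3K4me3 peak. In OPCs 2 were listed, both of 5.61 and of 3568 and 13024 bp, and in NFOs 3, with the highest at 5.92. H3K4me3 and H3K27me3 peaks overlapped in OPCs and in NFOs, and the order H3K4me3, both, both, which for Crnde rests on that limit, was listed at 337 genes (0.954%). The wide OPC H3K27me3 peak (chr8:92356730-92369753) lay wholly outside Crnde and covered an Irx5 TSS, which lies 1505 bp from one of Crnde. The NSC and OPC H3K4me3 peaks covered that Irx5 TSS as well, so they cannot be given to 1 of the 2 genes.

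At the Crnde promoter OLIG2 was listed in both stages. The OPC peak had fold enrichment 5.55 and the NFO peak at the same place 7.44, overlapping by 227 bp in an intron about 0.5 kb from a TSS, and both held an A or T run of 13 bases. A further NFO peak of 13.9 at chr8:92355518-92355753 lay 11 bp from a TSS on an exon. It is printed because it lay beneath H3K4me3 and H3K27me3 peaks of OPCs and NFOs and stayed in the count without runs, with a longest run of 9 bases. Its E-box is in capitals.
Crnde NFO peak: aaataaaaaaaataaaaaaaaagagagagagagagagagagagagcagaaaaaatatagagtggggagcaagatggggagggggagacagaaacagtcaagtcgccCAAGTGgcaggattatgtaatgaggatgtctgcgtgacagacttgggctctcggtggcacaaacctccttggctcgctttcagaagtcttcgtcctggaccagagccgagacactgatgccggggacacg
Its 1 E-box is of the form CAAGTG, and A-rich and GA-repeat sequence stands at its start.

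Mir99ahg hosts miR-99a, let-7c and miR-125b and is the longest of the 10 genes, at 537111 bp (chr16:77236317-77773427, plus strand). NSCs, OPCs and NFOs had 10, 6 and 10 H3K4me3 peaks there, with highest fold enrichment of 10.2, 7.38 and 8.55. At 5 sites peaks of the 3 stages overlapped, the strongest NSC one of 10.2 at chr16:77500046-77503996. H3K27me3 was listed in 3 narrow NSC peaks, each on an A or T run of 13 or 14 bases, in 1 OPC peak of 3.05 and in 2 NFO peaks, of 3.28 and 4.28, within 5 kb of the first TSS. No H3K27me3 peak overlapped an H3K4me3 peak.

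The miRNAs of Mir99ahg lay just downstream of those H3K4me3 peaks. The miR-99a hairpin (chr16:77598936-77599000) was 1326, 1843 and 3762 bp from the nearest listed H3K4me3 peak in NSCs, OPCs and NFOs, and that of let-7c (chr16:77599657-77599750) was 2047, 2564 and 4483 bp away. Mature miR-125b-5p (chr16:77646279-77646300) was 1449, 1475 and 1366 bp from its nearest one, of fold enrichment 4.41, 4.74 and 4.48. The mature sequences are shown with seeds in capitals, and no 2 of the 3 share a seed.
miR-99a-5p: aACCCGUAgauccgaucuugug
let-7c-5p: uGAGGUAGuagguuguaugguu
miR-125b-5p: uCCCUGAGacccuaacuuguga

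Mir99ahg carried the strongest OLIG2 peak of the 10 genes, in OPCs, and none in NFOs. The peak of fold enrichment 22.5 lay in an intron, 1665 bp from an internal TSS and on H3K4me3 peaks of all 3 stages. The other 2, of 8.54 and 7.49, lay 26207 and 5748 bp from a TSS and on no histone peak. The A or T runs of the 3 were 11, 4 and 18 bases in that order, so the one of 8.54 stayed in the count without runs. The nearest listed NFO OLIG2 peak was 60954 bp from a Mir99ahg TSS. The strongest peak is printed (chr16:77331169-77331398) with its 2 E-boxes, CATGTG and CACCTG, in capitals. CACCTG, or CAGGTG on the other strand, was present in 13.8% of OPC peaks.
Mir99ahg OPC peak: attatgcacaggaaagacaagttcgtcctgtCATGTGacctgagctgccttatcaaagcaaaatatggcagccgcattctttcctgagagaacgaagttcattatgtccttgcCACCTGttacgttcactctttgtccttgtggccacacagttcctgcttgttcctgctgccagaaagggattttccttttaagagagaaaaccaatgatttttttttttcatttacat

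**Figure D4:**
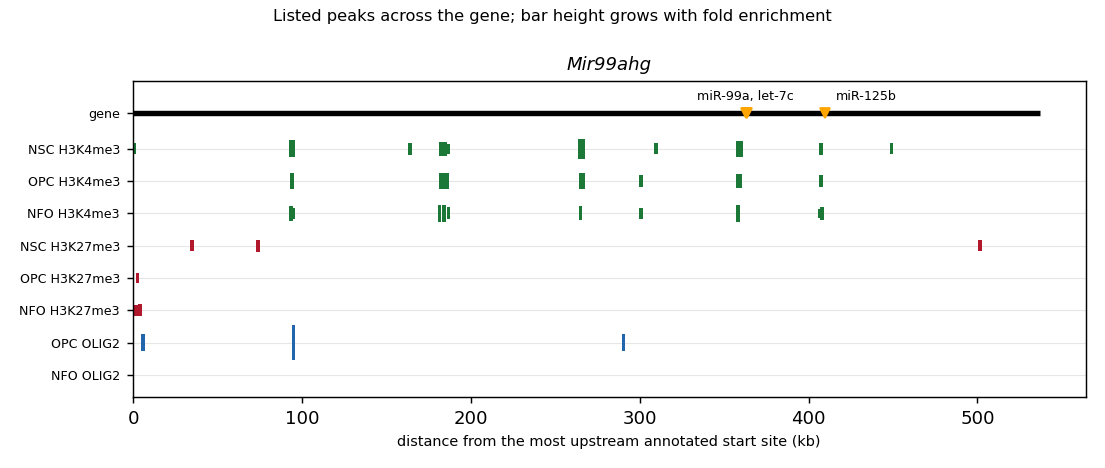
Listed peaks across Mir99ahg by library, against distance (kb) from the most upstream annotated start site, with bar height growing with fold enrichment and orange triangles for the miRNA genes. Narrow bars were widened to stay visible. H3K4me3 peaks recur at the same 5 places in the 3 stages, and OLIG2 peaks are listed in OPCs alone.

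Of the 10 genes Mir99ahg alone had rows in the RIP-seq lists, where 610 of the 35325 genes had OLIG2 sites. The others had no site in the control list either, so their absence was not read as a lack of binding. RIP-seq reads the RNA pulled down with OLIG2, and the control library, titled input, carries an IgG antibody in its labels. The labels place these libraries in NFOs and the methods describe NSCs, so the stage is uncertain. In Mir99ahg 102 OLIG2 sites with 682 tags (exact Poisson 95% interval 632 to 735, counting error only) and 103 IgG sites with 787 tags (733 to 844) were listed. The sites were called separately in each library and covered 157 and 111 bp, with a mean of 6.69 and 7.64 tags. The ratio of the sums was 0.867, and 0.935 without the positions also listed for Gm11146, a gene on the other strand. The transcripts' RPKM was at most 0.298, so no site passed the study's RIP filter, which requires RPKM above 1.

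Sites of the 2 RIP libraries overlapped at 3 places in Mir99ahg. The OLIG2 site at chr16:77501508-77501523 held 47 tags and the IgG site at chr16:77501523-77501524 held 15, a ratio of 3.13 (1.72 to 6.03), and the OLIG2 site at chr16:77500602-77500616 held 38 and the IgG site at chr16:77500615-77500616 held 15, a ratio of 2.53 (1.36 to 4.96). The OLIG2 sites were thus wider than the IgG sites they touched, and the ratios compare unlike widths. At the third, which lies within Gm11146, there were 6 and 9 tags (0.667, 0.195 to 2.10). Both stronger sites lay in the 5′ part of the strongest NSC H3K4me3 peak and within OPC and NFO peaks. Over the 3 together the ratio was 2.33 (1.59 to 3.49), or 2.30 after scaling to all listed tags, and 96.7% of 390 genes with such shared sites had a lower one. Tags of other sites at or near these were left out. By the site of 38 tags, IgG sites held 14, 12, 6 and 13 tags and OLIG2 sites 8, 4, 7 and 13. By the site of 47 tags, an IgG site held 10 and OLIG2 sites held 13 and 9. The ratios at shared sites thus depend on how sites were cut. Only 2.94% of the OLIG2 sites of Mir99ahg overlapped an IgG site, against 19.3% over the genes with both.

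**Figure D5:**
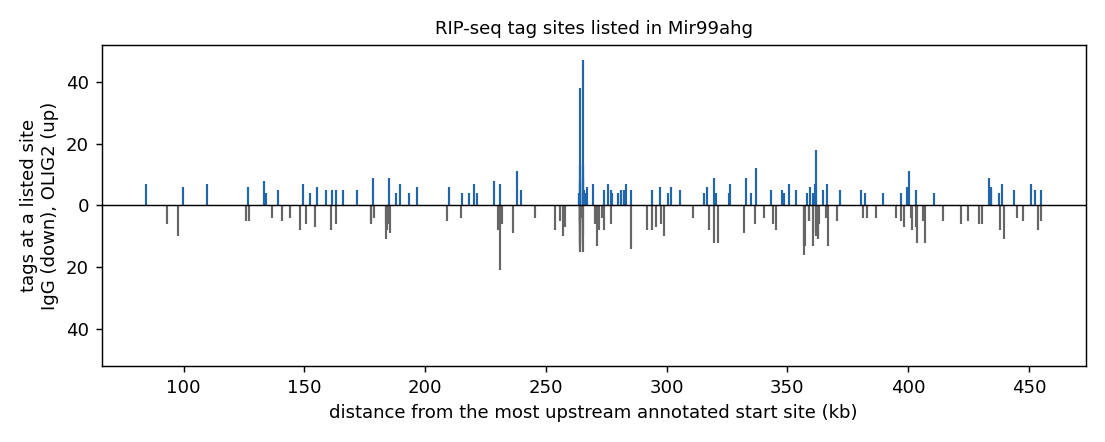
Tags at each RIP-seq site listed in Mir99ahg, with OLIG2 above the line and IgG below, against distance (kb) from the most upstream annotated start site. The 2 tallest OLIG2 sites, of 47 and 38 tags, stand together, while the median site holds 5 OLIG2 or 6 IgG tags.

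Pvt1, the neighbour of Myc on chromosome 15 (chr15:62037986-62378096, plus strand), had H3K4me3 in NSCs alone. A peak of 3322 bp with fold enrichment 6.91 covered its first TSS, and 5 narrow ones included a higher value of 7.26, on a run of 13 bases. Of these 5 only 1 lacked a run of 10 or more. In OPCs and NFOs the nearest listed H3K4me3 peak was 49051 bp from a TSS. H3K27me3 was listed in 6 intronic NSC peaks of 3.25 to 5.16, in 9 OPC peaks of 2.83 to 8.84 and in 1 NFO peak of 3.6. Among the NSC ones only that of 3.61 lacked a run of 10 or more, the others holding runs of 12 to 30 bases. Without narrow peaks on runs, H3K27me3 in NSCs rests on that peak. This order, both marks and then H3K27me3 alone, was listed at 259 genes (0.733%). No H3K4me3 peak overlapped an H3K27me3 peak of the same stage at Pvt1.

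OLIG2 peaks at Pvt1 lay on long runs of A or T. OPCs had 1 of fold enrichment 14.5 and NFOs had 4, of 16.8, 7.84, 10.7 and 11.5, all in introns at least 11617 bp from a TSS. The OPC peak and the strongest NFO peak overlapped by 183 bp and held A or T runs of 29 and 38 bases, and the runs of the other 3 were 16, 16 and 30. The last of these also lay on H3K27me3 peaks of NSCs (5.16) and OPCs (8.84). The strongest NFO peak (chr15:62079829-62080064) is printed with its run in capitals, as the longest among the 17 OLIG2 peaks.
Pvt1 NFO peak: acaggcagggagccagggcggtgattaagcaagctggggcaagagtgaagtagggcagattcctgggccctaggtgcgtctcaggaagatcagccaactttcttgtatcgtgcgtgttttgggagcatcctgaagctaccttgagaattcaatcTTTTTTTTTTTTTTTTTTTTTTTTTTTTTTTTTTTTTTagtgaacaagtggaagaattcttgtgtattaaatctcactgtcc
None of the 5 OLIG2 peaks of Pvt1 stayed in the count without runs.

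Gas5, a host of small nucleolar RNAs that rises in growth-arrested cells (chr1:161034422-161038539, plus strand), had H3K4me3 in all 3 stages. The fold enrichment was 9.86 in NSCs and 7.71 in OPCs, in peaks of 4234 and 3444 bp, and 4.05 and 3.47 in the 2 NFO peaks of 543 and 1175 bp. Zbtb37 starts 80 bp from a Gas5 TSS on the other strand, so the peaks over the start cannot be given to 1 of the 2 genes. No H3K27me3 or OLIG2 peak was listed at Gas5. Its 2 RefSeq promoter windows held 33 and 19 CpGs, more than 91.4% and 71.9% of all such windows.

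Snhg11, a small nucleolar RNA host prominent in neurons (chr2:158375638-158386145, plus strand), had the weakest H3K4me3 of the 10 genes in NSCs and no listed H3K4me3 in OPCs or NFOs. The NSC peak had fold enrichment 3.51, higher than 21% of the list, and was 729 bp wide over the TSS. In OPCs H3K27me3 was listed instead, in a peak of 3.91 that ended 224 bp before the gene and in an exonic one of 4.20, and in NFOs neither mark was listed. This order was found at 140 genes (0.396%), the fewest of any pattern among the 10. The NSC value stood just above the study's limit of 3.5, and at a fold enrichment above 5 neither mark was listed at Snhg11. The nearest H3K4me3 peak was 13988 bp from a TSS in OPCs and 13989 bp in NFOs. The promoter (chr2:158375463-158375762, plus strand) is shown as that of the gene listed with H3K4me3, then H3K27me3, then neither mark, with its 21 CpGs in capitals, more than in 75.2% of RefSeq promoters.
Snhg11 promoter: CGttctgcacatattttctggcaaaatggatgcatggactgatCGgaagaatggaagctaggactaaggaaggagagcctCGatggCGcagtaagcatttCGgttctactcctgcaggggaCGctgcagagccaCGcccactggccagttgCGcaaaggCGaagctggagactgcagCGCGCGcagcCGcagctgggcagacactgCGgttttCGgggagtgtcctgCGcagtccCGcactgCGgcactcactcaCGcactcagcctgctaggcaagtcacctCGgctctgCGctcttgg

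RefSeq promoter windows were found for 6 of the 10 genes, with 2 for Gas5. Malat1 held 10 CpGs, Mir99ahg 8, Gas5 33 and 19, Crnde 22, Miat 25 and Snhg11 21, in falling order of the highest NSC H3K4me3 value anywhere at the gene. For Mir99ahg that value, 10.2, lay at another site, and the NSC peak over its promoter window had 8.03. The median over all RefSeq promoters was 7. E-boxes of the form CANNTG were present in Gas5, Snhg11 and Malat1, and in 72.3% of all promoters.

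The study's filter (fold enrichment above 3.5 for the histone marks and above 5 for OLIG2, false discovery rate below 0.05) was passed by every OLIG2 peak at the 10 genes. It was passed by 22 of 28, 13 of 13 and 19 of 23 H3K4me3 peaks and by 12 of 17, 18 of 24 and 11 of 18 H3K27me3 peaks in NSCs, OPCs and NFOs. The filter took H3K27me3 from Neat1 in NSCs and from Mir99ahg in OPCs, and changed no other gene.

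A further 49 named lncRNAs, mostly neural or small RNA hosts, were read by the same rules, and 44 were annotated. H3K4me3 was listed at 39, 37 and 34 of them in NSCs, OPCs and NFOs, H3K27me3 at 19, 17 and 16, and overlapping peaks of both at 16, 11 and 8. OLIG2 was listed at 10 in OPCs and 13 in NFOs (22.7% and 29.5% of the list, beside 12.8% and 22.5% of all genes). Without narrow peaks on A or T runs it was listed at 3 and 3. The list held lncRNAs that the authors had named among those with OLIG2 peaks, such as Sox2ot, 2610316D01Rik and B230311B06Rik. Its OLIG2 shares are therefore not independent of these data. Sox2ot, Kcnq1ot1 and 2610307P16Rik had OLIG2 in both stages with every peak, and Sox2ot alone did without those peaks. At Kcnq1ot1, the imprinted antisense RNA of the Kcnq1 locus, the peaks had fold enrichment 10.5 in OPCs and 11.9 in NFOs. Sox2ot, which overlaps Sox2, had 7, 9 and 11 H3K4me3 peaks and its strongest OLIG2 peaks were of 8.33 in OPCs and 9.90 in NFOs.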

How the data were processed

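The 10 genes and the other gene lists were chosen with earlier results of these data known. The authors mapped ChIP-Seq reads to mm10 with Bowtie2, called histone peaks with MACS2 (broad) and OLIG2 peaks with SPP, and removed blacklisted regions. The deposited peak lists give fold enrichment, a ratio over input, and p-value and false discovery rate columns as −log10 values. RIP sites were called with ASPeak. The deposited RIP-seq lists give tag counts per site, the RPKM of the transcript and a p-value. No depth is given for the ChIP-Seq lists, so the precision of each fold enrichment is unknown. OLIG2 libraries were made with the DNA SMART ChIP-Seq Kit, and the kit of the histone libraries is not given in the sources used here. The 3 input DNA libraries were not analysed here.

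Peaks were joined to GENCODE M21 genes (lncRNA types and protein-coding genes) in Python 3.11.15, bases were read from GRCm38.p6 with pysam 0.24.0, and exact intervals were computed with SciPy 1.17.1. The joining step was tested on simulated short peaks near a TSS only. The parts of the rules on the gene body and on 5 kb upstream were not tested in this way. RIP sites were counted once per position, overlapping sites of a library were merged with the largest count kept for the comparison at shared sites, and coordinates are 1-based. RIP sites at 1 position were listed for genes of both strands. All 10 genes are named with every listed peak considered. Stricter filters, smaller windows, peak widths and, chosen after seeing the data, leaving out narrow peaks on A or T runs were the alternatives. Intervals cover counting error only.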

Additional observations from a re-analysis of the deposited data

How the results depend on the processing

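With 1 library per group no replicate could be left out. No paired analysis was possible because no group held more than 1 library. Of 67 alternative values for 12 results, 52 stayed within 1.5 times of the value given or, for the RIP ratio, within its interval. At a fold enrichment above 5, the NSC, OPC and NFO lists held H3K27me3 at 2, 3 and 1 genes, and both marks at 1 in NFOs. Within 1 kb of a TSS only, H3K27me3 was listed at 2, 3 and 2 genes, and within 2 kb only it was at 3 in OPCs. With peaks of at least 1 kb only, it was at 1 gene in NSCs (Rmst) and 2 in OPCs (Rmst and Crnde). OLIG2 within 2 kb of a TSS only was listed at 2 genes in NFOs. Without listed peaks of up to 500 bp on A or T runs, an alternative chosen after seeing the data, OLIG2 was at 2 genes in OPCs and 2 in NFOs. The RIP ratio at Mir99ahg turned from 2.33 at shared sites to 0.867 over all its sites and to 0.935 without positions also listed for Gm11146, an alternative chosen after seeing the data. Both set 3 shared places against sites called separately in each library. The RIP ratio with RPKM above 1 could not be computed, because no Mir99ahg transcript reached that value. The H3K4me3 counts stayed within 1.5 times under all alternatives run.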

Other observations

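The A or T runs under the listed OLIG2 peaks were long: the longest run per peak had a median of 15 bases in OPCs and 14 in NFOs, against 5 in stretches 5 kb to the right. In NFOs peaks with a run of 10 or more had a median fold enrichment of 8.58 and those without one 7.02, and in OPCs the medians were 8.05 and 7.97. E-boxes of the form CANNTG were present in 70.4% and 69.3% of the OPC and NFO peaks and in 71.8% and 71.7% of the stretches 5 kb away. CAGCTG was present in 13.6% of OPC peaks and 9.42% of their stretches, and in 10.1% and 9.60% for NFOs.

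In NFOs 5.87% of the listed H3K27me3 peaks began or ended within 5 bp of the same edge of an H3K4me3 peak, against 2.26% in OPCs and 0.954% in NSCs. At the 10 genes 3 of 18 NFO H3K27me3 peaks did so, 2 at Rmst and 1 at Crnde, and none of the 24 OPC and 17 NSC ones.

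Gm11146, a gene on the minus strand inside Mir99ahg, had 10 OLIG2 and 13 IgG RIP sites with 63 and 125 tags, and every one of these was also listed for Mir99ahg on the plus strand. These tags cannot be given to 1 of the 2 genes, and leaving them out moved the ratio of summed tags at Mir99ahg from 0.867 to 0.935.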
